A study of Mus musculus with 9 samples.

Results

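The pyruvate dehydrogenase complex and the enzymes that switch it on and off were read in CD8 T cells of 3 Rop7-specific clones. The set holds 10 genes of the 24060 in the expression table: the kinases Pdk1, Pdk2, Pdk3 and Pdk4, the phosphatases Pdp1 and Pdp2, and the subunit genes Pdha1, Pdhb, Dlat and Dld. They were taken by symbol, as the family and partners of Pdk1, and Pdk1 itself was chosen by its measured level in these same samples, which was high in Rop7-II T cells only. Its difference between clones is therefore described without a test, whereas the other 9 genes were included whatever their values.

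Rop7-I, Rop7-II and Rop7-III are transnuclear mouse lines, each made by nuclear transfer from 1 CD8 T cell and backcrossed to BALB/c. The donor cells bound the same Toxoplasma gondii epitope of the Rop7 protein on H-2Ld. Each line carries its own rearranged T-cell receptor α and β genes at the natural loci. The paper's figure legend calls the sequenced cells homozygous, while the sample labels give no genotype beyond the line. Since each clone is represented by 1 line, whatever else differs between the lines cannot be told apart from the receptor. Each clone was sequenced as 3 biological replicates (n = 3, 9 samples in all), and the age of the mice was not given in the sources used here. All cells came from spleen. They were kept overnight with IL-2 (10 ng/ml) and sorted as CD3+ CD8+ H-2Ld-Rop7+, with a purity of 90 to 95%. No sample was stimulated with antigen and no clone served as an untreated control, so that each clone was set against the others.

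The pyruvate dehydrogenase complex turns pyruvate into acetyl-CoA inside mitochondria and so sets how much of the product of glycolysis enters the tricarboxylic acid (TCA) cycle. Its kinases phosphorylate the E1α subunit, which stops the complex, and its phosphatases remove the phosphate and restart it. In T cells the kinases are known mainly for the switch towards lactate after activation, and Pdk1 is a textbook target of the hypoxia-inducible factor HIF-1. Transcript levels say nothing of phosphorylation or of enzyme activity, neither of which was measured here.

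For the 3 kinase genes with transcripts in these cells, the 250 bases before a RefSeq transcript start are shown because these paralogues differed in how they varied between clones, and because the core letters to which HIF-1 binds (ACGTG or GCGTG on either strand) can be looked for in them. Capitals mark each match, and the coordinates are those of GRCm38.p6, with each sequence written on the strand of its gene. Pdk1 lies at chr2:71872974-71873223 (+), Pdk2 at chr11:95041372-95041621 (-) and Pdk3 at chrX:93832151-93832400 (-). The window of Pdk1 ends just inside the gene, whose outermost RefSeq start is at 71873215.
Pdk1: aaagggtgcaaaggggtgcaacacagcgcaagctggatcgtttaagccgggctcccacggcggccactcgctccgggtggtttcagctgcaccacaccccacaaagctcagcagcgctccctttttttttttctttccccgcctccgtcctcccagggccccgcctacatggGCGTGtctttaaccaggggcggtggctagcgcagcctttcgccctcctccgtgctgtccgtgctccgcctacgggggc
Pdk2: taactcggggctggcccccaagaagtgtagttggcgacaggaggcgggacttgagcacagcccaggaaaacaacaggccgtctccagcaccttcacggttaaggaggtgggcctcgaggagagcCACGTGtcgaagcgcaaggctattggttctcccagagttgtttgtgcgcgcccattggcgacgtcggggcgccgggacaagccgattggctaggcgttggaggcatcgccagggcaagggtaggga
Pdk3: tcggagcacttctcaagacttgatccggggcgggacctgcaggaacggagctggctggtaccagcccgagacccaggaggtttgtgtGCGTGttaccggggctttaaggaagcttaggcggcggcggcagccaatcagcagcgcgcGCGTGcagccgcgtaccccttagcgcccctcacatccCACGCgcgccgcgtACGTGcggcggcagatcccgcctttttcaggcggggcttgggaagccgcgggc
Pdk1 held 1 match, Pdk2 held 2 that overlap as the 2 strands of 1 palindrome, and Pdk3 held 4. Of 32851 promoter windows of the same length, 38.6% held at least 1 match and 2.58% held at least 4. With the palindrome counted once, Pdk1 and Pdk2 held 1 each, and a match is a description of letters only.

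Expression was given by the authors in TPM, a transcript level scaled for transcript length and for the total of each sample, so that levels of different genes can be set side by side. No read counts were used here. The paper gives a typical depth but not the depth of each sample, so that no counting interval can be given. Samples had 11056 to 11494 genes above 1 TPM. The label of CD8 T cells was checked against its markers: all 10 were between 93.64 and 2385.84 TPM in every sample, and Cd4 was at most 6.75 TPM. Rop7-II replicate 1 stood apart. It held the highest level of all 14 B-cell markers and of all 11 myeloid markers in the table (Lyz2 at 485.32 TPM, against 19.83 to 160.9). It was also highest for 3 of 4 CD4 T-cell markers. Mean log2(TPM + 1) over the B-cell markers was 6.38 there and 3.08 and 3.34 in the other Rop7-II samples, 4.05 to 5.28 in Rop7-I and 2.86 to 3.77 in Rop7-III. Over the myeloid markers it was 5.02 there, 2.70 and 3.84 in the other Rop7-II samples, 2.49 to 3.23 in Rop7-I and 1.91 to 2.74 in Rop7-III. No B-cell or myeloid marker was at 0 in all samples. In such bulk samples, fewer cells of a type and less RNA per cell cannot be told apart.

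Pdk1, on chromosome 2 of GRCm38 from 71873215 to 71903858, was the abundant kinase of Rop7-II T cells. It stood at 235.62, 225.69 and 254.51 TPM in the Rop7-II samples, at 41.66, 39.65 and 41.71 TPM in Rop7-III and at 37.18, 37.68 and 39.03 TPM in Rop7-I. The 3 Rop7-II samples lay far above all others, and the Rop7-III samples lay just above the Rop7-I samples with no overlap. Mean levels were 239 ± 14.6 TPM (SD, n = 3) in Rop7-II, 41.0 ± 1.18 TPM (SD, n = 3) in Rop7-III, with 38.0 ± 0.957 TPM (SD, n = 3) in Rop7-I, so that the mean of Rop7-II was 5.82 times that of Rop7-III and 6.29 times that of Rop7-I. On the log2(TPM + 1) scale, Rop7-II exceeded the mean of both other clones by 2.56. By the size of that difference Pdk1 ranked 17th of 12115 genes. Rop7-III exceeded Rop7-I by 0.11 on the same scale.

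The level of Pdk1 was as high without the sample that held the most B-cell and myeloid RNA. Pdk1 in Rop7-II replicate 1 lay between the other 2 Rop7-II samples, and the difference from the mean of both other clones was 2.57 without it. No other annotated gene overlaps Pdk1, and sharing of reads was not tested.

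The 3 paralogues of Pdk1 carried no such difference. Pdk2, on chromosome 11 and a kinase of broad tissue distribution, stood at 30.17, 33.77 and 34.08 TPM in Rop7-I, at 29.95, 30.81 and 29.95 TPM in Rop7-II and at 34.61, 31.93 and 34.24 TPM in Rop7-III. Rop7-II overlapped Rop7-I and lay below Rop7-III, by 0.15 on the log2 scale (95% interval 0.02 to 0.27, limma with Benjamini-Hochberg adjusted p = 0.0872). Pdk3, on the X chromosome, stood at 21.33, 20.32 and 20.97 TPM in Rop7-I, at 21.02, 22.23 and 22.77 TPM in Rop7-II and at 21.31, 21.56 and 19.43 TPM in Rop7-III, so that all 3 clones overlapped. Pdk4, the kinase that fasting and fatty acids induce in muscle and liver, was listed at 0 to 0.06 TPM in every sample and was not tested. Pdk2 overlaps 2 annotated genes and Pdk3 overlaps 1, and none of these is among the genes of the table.

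**Figure D1:**
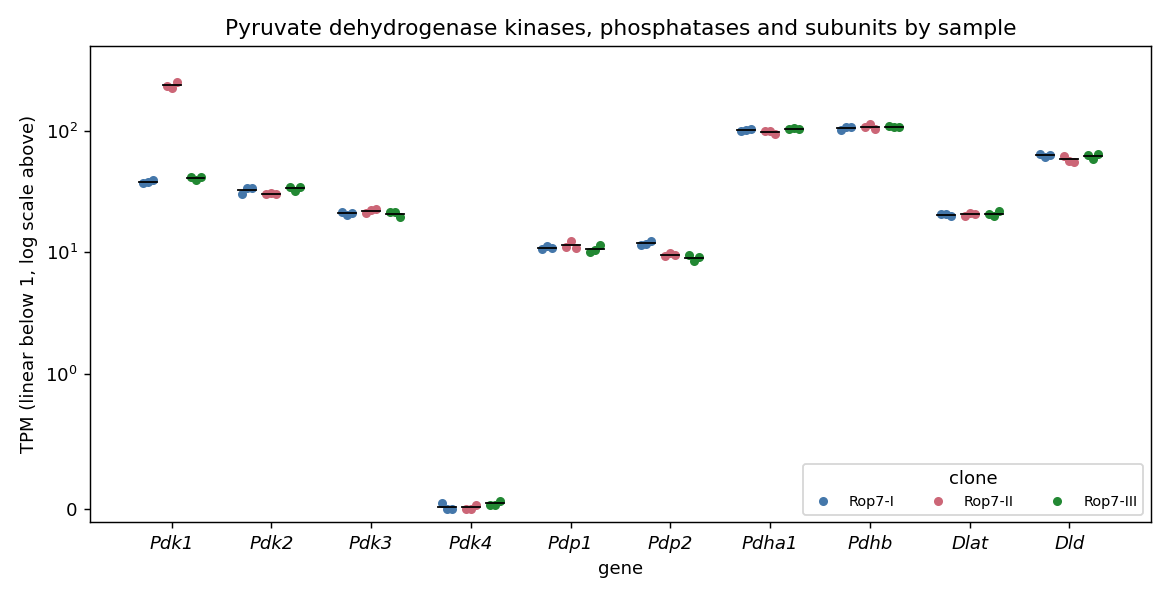
TPM of the 10 genes in each of the 9 samples (points, coloured by clone, with the mean of each clone as a black line) on an axis that is linear below 1 and logarithmic above. Pdk1 lies at 225.69 to 254.51 TPM in Rop7-II and at 37.18 to 41.71 TPM in the other clones, Pdk4 lies at 0 to 0.06 TPM throughout, and the other 8 genes lie close together in all clones.

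The make-up of the kinase pool in Rop7-II followed from this. Summed over the 4 kinases, the level was 291 ± 14.7 TPM (SD, n = 3) in Rop7-II, 91.5 ± 2.69 TPM (SD, n = 3) in Rop7-I and 95.4 ± 2.22 TPM (SD, n = 3) in Rop7-III. Pdk1 made up 82.2, 81.0 and 82.8% of it in the Rop7-II samples, and 41.1 to 43.7% in the other 6 samples. The share of Pdk2 was 10.4 ± 0.654% (SD, n = 3) in Rop7-II against 35.7 ± 1.47% (SD, n = 3) in Rop7-I and 35.2 ± 0.833% (SD, n = 3) in Rop7-III. These shares hold Pdk1 and so follow from the choice of that gene. Without Pdk1, the summed level of Pdk2, Pdk3 and Pdk4 was 52.3 ± 1.12 TPM (SD, n = 3) in Rop7-II, 53.6 ± 1.81 TPM (SD, n = 3) in Rop7-I and 54.4 ± 1.35 TPM (SD, n = 3) in Rop7-III. These sums differed by 1.57 to 4.11% between clones, with exact two-sided permutation p of 0.1 to 0.6 and adjusted p of 0.3 to 0.6 over the 9 tests of summed levels. With 3 samples against 3 the exact test cannot go below 0.1.

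**Figure D2:**
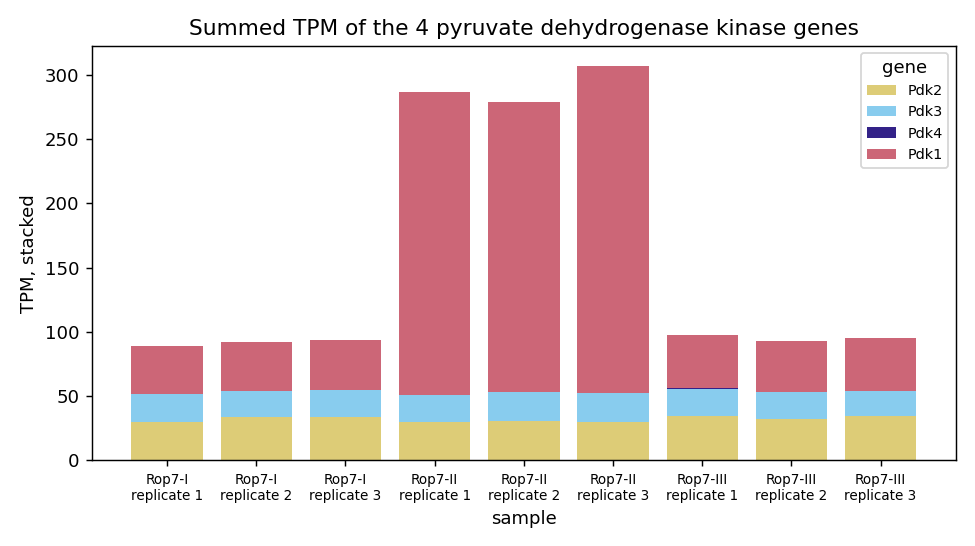
Stacked TPM of the 4 kinase genes in each of the 9 samples, with the bars starting at 0. The lower segments of Pdk2 and Pdk3 reach 50.97 to 55.95 TPM in every sample, and the segment of Pdk1 on top takes the Rop7-II bars to 278.73 to 307.26 TPM.

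The phosphatases were low and differed little. Pdp1, the calcium-sensitive form, stood at 10.67, 11.21 and 10.92 TPM in Rop7-I, at 11.1, 12.4 and 10.94 TPM in Rop7-II and at 10.04, 10.35 and 11.57 TPM in Rop7-III, with overlap between all clones. Pdp2, the form known for its response to insulin, stood at 11.43, 11.72 and 12.48 TPM in Rop7-I, at 9.38, 9.86 and 9.49 TPM in Rop7-II and at 9.51, 8.53 and 9.13 TPM in Rop7-III. Every Rop7-I sample lay above every sample of the other clones. Pdp2 fell by 0.36 on the log2 scale in Rop7-III against Rop7-I (standard error 0.07, limma with Benjamini-Hochberg adjusted p = 0.00945), while the difference of 0.28 between Rop7-I and Rop7-II did not pass at 0.01 (limma with Benjamini-Hochberg adjusted p = 0.0197). The call in Rop7-III was close to the threshold: of the 9 fits that leave out 1 sample it was kept only without Rop7-II replicate 1, and adjusted p lay between 0.00952 and 0.0399 over these fits. Summed over both phosphatases the level was 22.8 ± 0.658 TPM (SD, n = 3) in Rop7-I, 21.1 ± 1.04 TPM (SD, n = 3) in Rop7-II and 19.7 ± 0.920 TPM (SD, n = 3) in Rop7-III (exact two-sided permutation p of 0.1 to 0.3).

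The ratio of kinase to phosphatase transcripts combines both. It was 14.0, 12.5 and 15.0 in the Rop7-II samples, 4.01, 4.00 and 4.02 in Rop7-I and 4.99, 4.93 and 4.61 in Rop7-III. Rop7-II was again far above the others, on account of Pdk1, and Rop7-III lay above Rop7-I with no overlap.

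The subunits of the complex were at like levels in the 3 clones. Pdha1, which encodes E1α and holds the serines that the kinases phosphorylate, stood at 99.7, 101.04 and 103.06 TPM in Rop7-I, at 99.09, 98.81 and 93.44 TPM in Rop7-II and at 103.82, 105.26 and 103.28 TPM in Rop7-III. The Rop7-II samples were the lowest, by 0.08 on the log2 scale against the mean of both other clones (95% interval -0.14 to -0.02, limma with Benjamini-Hochberg adjusted p = 0.0694). Pdhb, which encodes the partner chain E1β, lay at 102.34 to 113.7 TPM in all samples. Dlat, the E2 core that carries the lipoyl arms and to which the kinases bind, lay at 19.72 to 21.74 TPM, and Dld, the E3 chain that this complex shares with its sister complexes, lay at 55.74 to 64.35 TPM. Pdhb, Dlat and Dld overlapped between all clones. Pdha1 overlaps Map3k15, a gene of the table, and Gm39547, and without strand their reads could be shared. The summed level of the 4 subunits was 290.4 ± 3.44 TPM (SD, n = 3) in Rop7-I, 284 ± 9.88 TPM (SD, n = 3) in Rop7-II and 295 ± 2.19 TPM (SD, n = 3) in Rop7-III (exact two-sided permutation p of 0.1 to 0.4).

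Set against its substrate, the kinase was the more abundant transcript in Rop7-II only. Pdk1 stood at 2.46 ± 0.232 TPM (SD, n = 3) per TPM of Pdha1 in Rop7-II, at 0.375 ± 0.00334 (SD, n = 3) in Rop7-I and at 0.394 ± 0.0150 (SD, n = 3) in Rop7-III. In Rop7-II its level alone came to 77.7 to 93.3% of that of the 4 subunits together. Among the subunits, Pdha1 stood at 0.897 ± 0.0240 (SD, n = 3) per TPM of Pdhb in Rop7-II, 0.958 ± 0.0196 (SD, n = 3) in Rop7-I and 0.963 ± 0.0109 (SD, n = 3) in Rop7-III. The Rop7-II samples were slightly lower with no overlap, which was not tested. Dlat per TPM of Pdhb (0.182 to 0.204) and Dld per TPM of Dlat (2.69 to 3.21) overlapped between all clones.

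Over the 9 genes other than Pdk1, 8 were above 1 TPM in some sample and were tested. Of these 8, none passed an adjusted p under 0.01 in Rop7-II against the mean of both other clones, where 12.2% of all genes tested passed (5.95% higher and 6.26% lower), or in Rop7-III against Rop7-II, where 12.3% did (6.39% higher and 5.89% lower), or in Rop7-I against Rop7-II, where 7.53% did (3.67% higher and 3.85% lower). Unadjusted p was under 0.05 in 3, 2 and 2 of the 8. The share of all genes at that looser cut was not counted, so these numbers show neither an excess nor a lack. In Rop7-III against Rop7-I, where 4.85% of all genes passed (2.58% higher and 2.28% lower), 1 of 8 did, namely Pdp2, which was lower. In Rop7-II against the mean of both other clones the 8 differences ran from -0.13 to 0.08 on the log2 scale, and their 95% intervals lay within 0.849-fold and 1.17-fold of TPM + 1. The comparisons share samples, since each clone enters 3 of them.

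**Figure D3:**
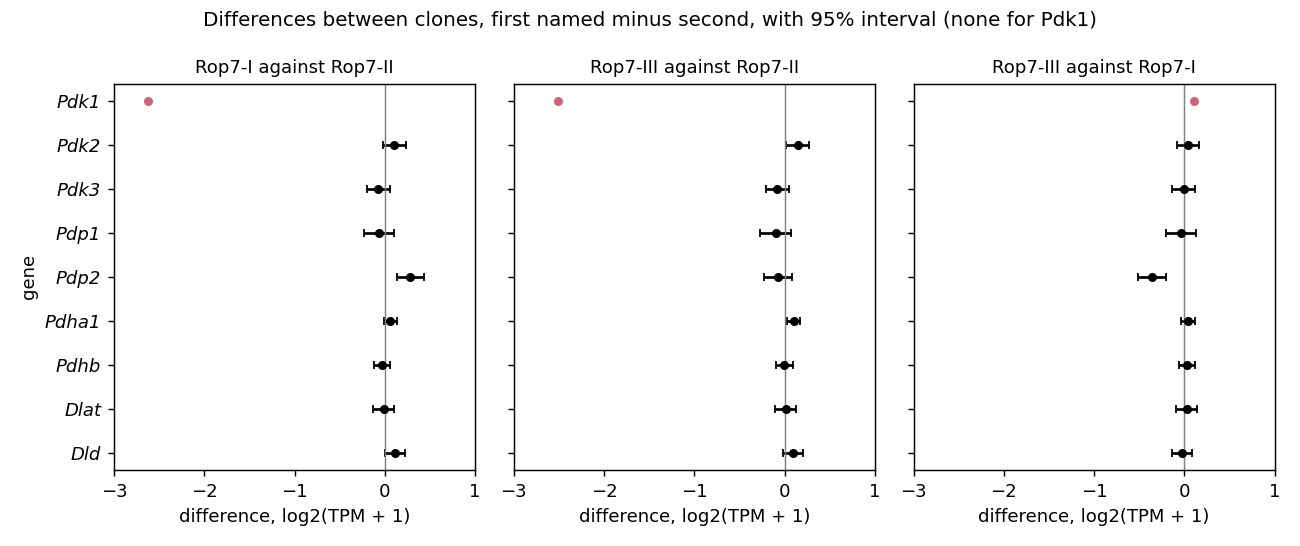
Difference in log2(TPM + 1) between clones for the 9 genes above 1 TPM, first named minus second, with the 95% interval from the fit over all genes for every gene but Pdk1. Pdk1 (red, described without a test and with no interval) lies at -2.62 and -2.51 in both panels against Rop7-II, and the other 8 genes lie between -0.36 and 0.28 in all panels.

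The other genes of the complex were level as well. Pdhx, the E3-binding protein, lay at 9.56 to 11.36 TPM, and Pdpr, the regulatory subunit of the phosphatase, lay at 44.32 to 51.86 TPM. Neither passed in any comparison. Pdha2, the testis form of E1α, was listed at 0 in all samples.

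Pathway genes around the complex were counted from lists chosen together with the set, in Rop7-II against the mean of both other clones. The sister complexes, which use the same E3 and the same cofactors on other 2-oxo acids, passed in 1 of 8 genes tested, or 12.5% against 12.2% of all genes. This was Bckdhb, a chain of the branched-chain 2-oxo acid dehydrogenase, at 16.81, 15.03 and 12.33 TPM in Rop7-II, 8.67 to 10.25 TPM in Rop7-I and 9.73 to 11.05 TPM in Rop7-III. It rose by 0.52 on the log2 scale (limma with Benjamini-Hochberg adjusted p = 0.00459), and its level was highest in the sample with the most B-cell RNA, without which it no longer passed (adjusted p = 0.0140). It passed in 3 of the 9 fits that leave out 1 sample.

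Of the genes for cofactor supply, 1 was higher and 2 were lower of 13 tested, or 23.1% against 12.2% of all genes (5.95% higher and 6.26% lower). Nfu1, an iron-sulphur carrier needed to make the lipoyl arms of E2, fell by 0.38 on the log2 scale in Rop7-II (limma with Benjamini-Hochberg adjusted p = 0.00100), with 37.09, 35.68 and 31.88 TPM against 42.07 to 47.78 TPM in the other clones. Isca1, which acts in the same iron-sulphur assembly, fell by 0.17 (limma with Benjamini-Hochberg adjusted p = 0.00587). Neither overlapped between Rop7-II and the other clones. Nfu1 passed in all 9 fits that leave out 1 sample and Isca1 in none (adjusted p 0.0103 to 0.0228).

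Genes that bring pyruvate in or use it passed in 2 of 15, or 13.3%, close to the 12.2% of all genes. Pkm, the pyruvate kinase of lymphocytes, rose by 0.15 on the log2 scale in Rop7-II (limma with Benjamini-Hochberg adjusted p = 0.00592), from 357.84 to 378.59 TPM in the other clones to 401.55 to 418.18 TPM. Me2, the mitochondrial malic enzyme that makes pyruvate from malate, fell by 0.28 (limma with Benjamini-Hochberg adjusted p = 1.73e-04). It differed between all 3 clones, at 78.8 ± 1.60 TPM (SD, n = 3) in Rop7-II, 88.7 ± 2.27 TPM (SD, n = 3) in Rop7-I and 103 ± 1.31 TPM (SD, n = 3) in Rop7-III, and passed in each of the 3 pairs. Ldhb, a lactate dehydrogenase chain, fell by 0.58 in Rop7-III against Rop7-II (limma with Benjamini-Hochberg adjusted p = 0.00450), a call kept in 5 of the 9 fits that leave out 1 sample (adjusted p up to 0.0196). Pkm passed in 1 of the 9 fits that leave out 1 sample and Me2 in all 9 for Rop7-II against both others. Me2 also passed in all 9 for Rop7-III against Rop7-II, in 4 for Rop7-III against Rop7-I and in none for Rop7-I against Rop7-II (adjusted p 0.0108 to 0.0293).

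The TCA cycle passed in 2 of 19 genes, or 10.5% against 12.2% of all genes. Both were higher, while over all genes 5.95% were higher and 6.26% lower. Sdha, the flavoprotein of succinate dehydrogenase, rose by 0.14 on the log2 scale in Rop7-II and Suclg1, of succinyl-CoA ligase, rose by 0.20 (limma with Benjamini-Hochberg adjusted p of 0.00395 and 0.00955). Neither passed without Rop7-II replicate 1 (adjusted p of 0.0140 and 0.0240), so that the count was then 0 of 19. In that fit 1168 of 11916 genes passed over all, against 1479 of 12115 with all samples. Sdha passed in 4 and Suclg1 in 1 of the 9 fits that leave out 1 sample.

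Of the hypoxia response, the program that Pdk1 is best known to belong to, 3 of 29 genes passed in Rop7-II, or 10.3% against 12.2% of all genes. All 3 were higher, while over all genes 5.95% were higher and 6.26% lower. Ddit4, an inhibitor of mTORC1, rose by 0.63 on the log2 scale, Pfkfb4, which tunes glycolysis, by 0.44, and Slc2a1, the main glucose transporter, by 0.18 (limma with Benjamini-Hochberg adjusted p of 0.00469, 0.00914 and 0.00944). Ddit4 stood at 32.32, 26.05 and 25.1 TPM in Rop7-II, 17.27 to 22.96 TPM in Rop7-I and 13.67 to 17.19 TPM in Rop7-III. The list held no gene with a difference of 2-fold, while Pdk1 differed by 5.92-fold on the same scale of TPM + 1. Of the 9 fits that leave out 1 sample, Ddit4 passed in 5, Pfkfb4 in 1 and Slc2a1 in none. Without Rop7-II replicate 1, none of the 3 passed (adjusted p of 0.0144 to 0.0234). In that fit 1 of 27 tested genes of the list passed, while 1168 of 11916 did over all genes. The gene was Pgam1, a glycolytic mutase with near-identical copies in the genome, which fell by 0.62 (limma with Benjamini-Hochberg adjusted p = 1.66e-05).

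Among 17 tested genes known to regulate the kinase genes, 1 passed in Rop7-II, or 5.88% against 12.2% of all genes. Myc fell by 0.34 on the log2 scale (limma with Benjamini-Hochberg adjusted p = 0.00876), with 48, 40.46 and 49.74 TPM against 62.94 to 65.73 TPM in Rop7-I and 47.77 to 56.83 TPM in Rop7-III, and passed in 1 of the 9 fits that leave out 1 sample (adjusted p 0.00662 to 0.0226). Hif1a, the oxygen-regulated chain of HIF-1, stood at 73.95, 65.76 and 65.32 TPM in Rop7-II, 73.62 to 75.92 TPM in Rop7-I and 73.1 to 77.18 TPM in Rop7-III. Its difference of -0.13 did not pass (limma with Benjamini-Hochberg adjusted p = 0.0541), but passed at -0.19 without Rop7-II replicate 1 (adjusted p = 0.00582). In Rop7-III against Rop7-II, 1 of the 17 passed (5.88% against 12.3% of all genes), namely Egln2, a prolyl hydroxylase that marks HIF chains for destruction, which fell by 0.15 (adjusted p = 0.00545). It passed in 3 of the 9 fits that leave out 1 sample and not without Rop7-II replicate 1 (adjusted p = 0.0166). In Rop7-I against Rop7-II 2 passed (11.8% against 7.53%). They were Myc, 0.48 higher in Rop7-I (adjusted p = 0.00465, passed in 5 of the 9 fits), and Ppargc1b, a coactivator of mitochondrial genes, 0.38 higher (adjusted p = 0.00606, passed in 4). In Rop7-III against Rop7-I 2 passed (11.8% against 4.85%), namely Foxo1 and Rxra, 0.27 and 0.43 higher in Rop7-III (adjusted p of 0.00777 and 0.00727), and each passed in 3 of the 9 fits.

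**Figure D4:**
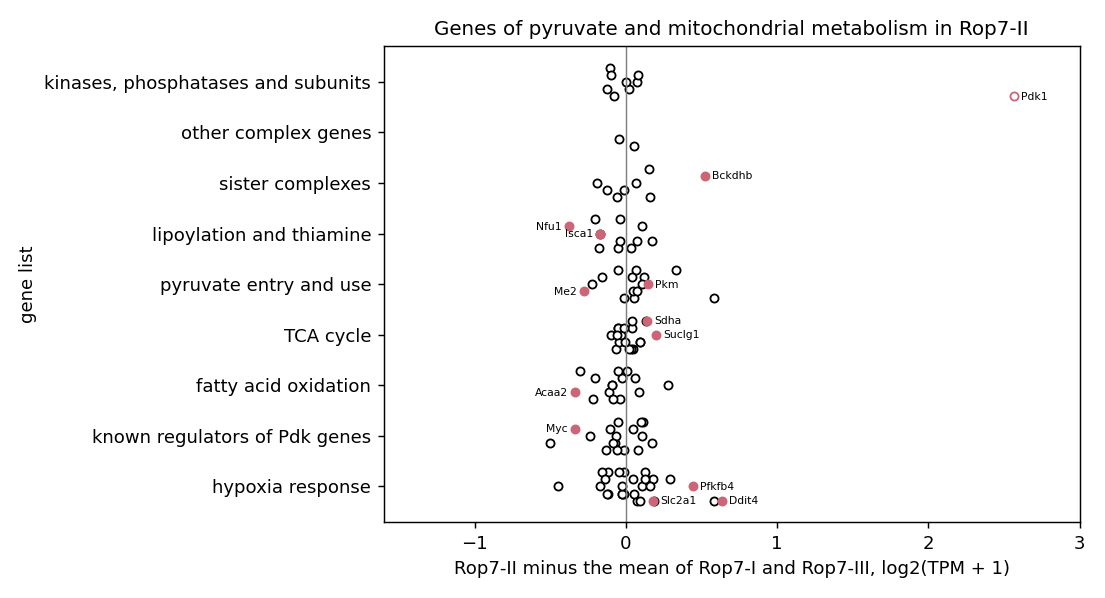
Difference in log2(TPM + 1) of Rop7-II minus the mean of Rop7-I and Rop7-III for the tested genes, by list, with 1 gene of the cofactor list left out. Filled points passed an adjusted p under 0.01 and are named, and Pdk1 (open red, described without a test) lies at 2.56 while the points that passed lie between -0.38 and 0.63.

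The genomic neighbours of Pdk1 did not rise with it as a block. Of 17 genes of the table within 1 Mb, 10 were tested, and in Rop7-II against the mean of both other clones 1 was higher and 1 lower, or 20% against the 12.2% of all genes. Itga6, the α6 integrin chain that binds laminin, ends 14.8 kb before Pdk1 and moved the other way. It stood at 55.76, 53.67 and 69.5 TPM in Rop7-II, at 208.27, 227.86 and 220.9 TPM in Rop7-I and at 154.28, 167.81 and 166.53 TPM in Rop7-III, with no overlap between any clones. It fell by 1.65 on the log2 scale in Rop7-II (standard error 0.07, limma with Benjamini-Hochberg adjusted p = 1.78e-06), and passed in all 9 fits that leave out 1 sample. Metap1d, a mitochondrial methionine aminopeptidase 348 kb away, rose by 0.42 (limma with Benjamini-Hochberg adjusted p = 2.83e-04), with 45.57, 48.22 and 43.28 TPM in Rop7-II, 36.63 to 39.26 TPM in Rop7-III and 29.42 to 31.56 TPM in Rop7-I. It followed the clone order of Pdk1, at a far smaller range, and passed in each pair of clones. Of the 9 fits that leave out 1 sample, it passed in all 9 for Rop7-II against both others and for Rop7-I against Rop7-II. It passed in 5 for Rop7-III against Rop7-II (adjusted p = 0.0123 without Rop7-II replicate 1) and in 3 for Rop7-III against Rop7-I. Rapgef4, on the other side of Pdk1 and 77.4 kb away, was 0.36 higher in Rop7-I than in Rop7-II (limma with Benjamini-Hochberg adjusted p = 0.00646), a call kept in 2 of the 9 fits that leave out 1 sample. The remaining 7 tested neighbours, Mettl8, Dcaf17, Cybrd1, Dync1i2, Slc25a12, Hat1 and Cdca7, passed in no comparison over all samples. Without Rop7-II replicate 1, Cdca7, a cell-cycle gene at 1.8 to 3.79 TPM in all samples, passed in Rop7-II against the mean of both other clones (-0.62, adjusted p = 0.00586) and in Rop7-III against Rop7-II (adjusted p = 0.00821). Within 5 Mb, 6 of 46 tested genes passed in Rop7-II, or 13.0%.

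**Figure D5:**
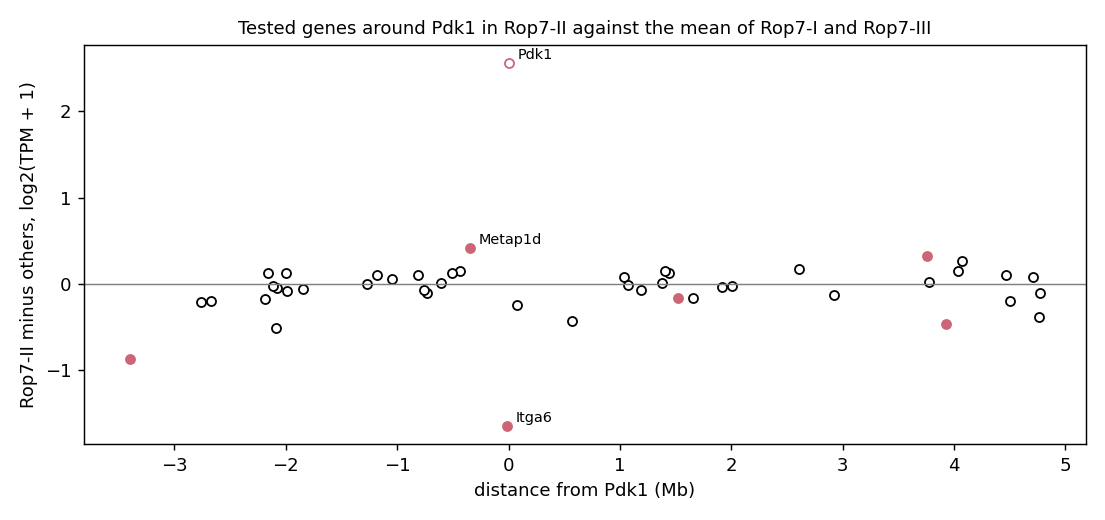
Difference in log2(TPM + 1) of Rop7-II minus the mean of Rop7-I and Rop7-III for Pdk1 and the 46 tested genes within 5 Mb, by distance from Pdk1 in Mb. Filled points passed an adjusted p under 0.01. Pdk1 at 2.56 and its neighbour Itga6 at -1.65 lie furthest from 0, in opposite directions.

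Genes whose level followed Pdk1 most closely were ranked by Pearson's r of log2(TPM + 1) over the 9 samples, as a description with no test, since the 9 points are 3 clones and r mostly reflects a split of Rop7-II from the rest. The 10 highest, with r of 0.990 to 0.996, were Atp6v0e2, Cmtm7, Trappc12, Kidins220, Klhl18, Cdk10, Abhd14b, Dok2, Abhd14a and Klhl20. They lie on chromosomes 1, 6, 8, 9, 12 and 14, none on the chromosome of Pdk1. They were not spread evenly. Abhd14a, Abhd14b, Klhl18 and Cmtm7 lie on chromosome 9 between 106440051 and 114781993. Kidins220 and Trappc12 lie on chromosome 12 between 24974903 and 28750485. The size of change of the 10 genes varied widely. Atp6v0e2, the first by r, was near the floor, at 2.64 to 2.82 TPM in Rop7-II and 0 to 0.08 TPM in all other samples. It was above 1 TPM, and so tested, only on account of Rop7-II. Abhd14b, at 21.2 ± 2.84 TPM (SD, n = 3) in Rop7-II and under 1 TPM in all other samples, was likewise tested only on account of Rop7-II. It overlaps Abhd14a, whose reads it may share. Dok2, an adaptor that dampens receptor signals, stood at 192 ± 12.5 TPM (SD, n = 3) in Rop7-II, 64.0 ± 1.44 TPM (SD, n = 3) in Rop7-III, with 52.9 ± 2.75 TPM (SD, n = 3) in Rop7-I. Cmtm7, a MARVEL-domain membrane protein, stood at 139 ± 7.27 TPM (SD, n = 3), 39.5 ± 0.223 TPM (SD, n = 3) and 35.2 ± 2.04 TPM (SD, n = 3), which is the order of Pdk1. Klhl18, by contrast, moved only from 26.1 to 26.71 TPM in the other clones to 31.26 to 32.39 TPM in Rop7-II.

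The 5 genes most opposite to Pdk1, with r of -0.989 to -0.996, were Scg5, Nfkbiz, Tef, Agps and Arhgap26. Scg5, a secretory chaperone of the neuroendocrine lineage, stood at 3.27, 2.46 and 3.61 TPM in Rop7-II and at 93.61 to 104.96 TPM in the other 6 samples. Nfkbiz, a nuclear regulator of NF-κB targets, stood at 22.6 ± 0.885 TPM (SD, n = 3) in Rop7-II, 37.1 ± 1.496 TPM (SD, n = 3) in Rop7-I and 37.7 ± 0.873 TPM (SD, n = 3) in Rop7-III. Scg5 and Agps are on chromosome 2 with Pdk1.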

How the data were processed

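CD8 T cells of 3 clones with 3 biological replicates each were compared. From 200 ng of RNA the authors made libraries of polyadenylated RNA, which were sequenced without strand. The deposited values are TPM, made by the authors with RSEM 1.2.11 on RefSeq genes of mm10, and the submitters' notes name DESeq2 1.8.1 for their own tests. The 9 columns were used as deposited, and positions came from RefSeq genes of GRCm38.p6. Genes with a maximum TPM over 1 (12115 of 24060) were tested on log2(TPM + 1), where a fold change understates that of low genes, with limma 3.58.1 in R 4.3.3 (all 9 samples, trended prior), Benjamini-Hochberg adjusted over all genes tested and called under 0.01. Summed levels were compared by exact permutation tests. The labels do not tie replicates to animals, so p measures the spread between these samples. Replicates of a clone correlated at 0.976 to 0.995, and no 2 columns were identical. Scripts were tested on simulated data.

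The named genes are the set, Pdhx, Pdha2, Pdpr, for each list and comparison the 3 called genes of lowest adjusted p (or fewer), the genes within 1 Mb of Pdk1, and the 10 most and 5 least correlated with it. Hif1a, Pgam1 and Acadvl were named after their values were seen, and 1 gene of the cofactor list and 1 B-cell marker are not reported here. The set and the lists were chosen with earlier results of these data known. Promoter sequence came from the RefSeq table for 9 of the 10 genes, with no entry for Pdp1. Alternatives were other pseudocounts, filters, scalings, weights, a replicate block and leaving out each sample.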

Additional observations from a re-analysis of the deposited data

How the results depend on the processing

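The deposited TPM hold no counts, so low genes such as Pdk4 and Pdp2 carry counting error that could not be given, and small differences between clones could not be weighed by depth. With 3 samples per clone, most calls of single pathway genes near the threshold were lost when 1 sample was left out. Pdk1 kept its direction in every alternative, with 2.52 to 2.60 in Rop7-II against the mean of both other clones.

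Of the other genes of the set, 1 passed in Rop7-III against Rop7-I (Pdp2), and 0 did with a pseudocount of 0.1 (adjusted p = 0.0102), with no filter on low values (0.0164), with samples shifted to a common median (0.0155), after quantile normalization (0.0211), with a replicate block (0.0259) and with only the clones compared in the fit (0.0123). The count was 0 to 1 when each sample was left out. In Rop7-I against Rop7-II the count went from 0 to 1 at an adjusted p under 0.05. The share of all genes at that cut was not counted, so this shows neither an excess nor a lack. The cause was not tested.

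Genes near 0 changed sign. Pdhb in Rop7-III against Rop7-II was -0.0025 and became 0.0069 at a common median and 0.0092 after quantile normalization. Dlat there was 0.012 and became -0.0085 with array weights. Pdk3 in Rop7-III against Rop7-I was -0.0082 and became 0.0073 at a common median, 0.0020 after quantile normalization and 0.0093 with array weights. Dlat in Rop7-II against both others was 4.6e-04 and became -0.0012 and -0.0074 at a common median and after quantile normalization.

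When each sample was left out, ranges that crossed 0 in Rop7-III against Rop7-II were -0.039 to 0.032 for Pdhb and -0.021 to 0.046 for Dlat. In Rop7-III against Rop7-I they were -0.015 to 0.075 for Pdk2, -0.035 to 0.037 for Pdk3, -0.092 to 0.0016 for Pdp1, -0.0080 to 0.059 for Dlat and -0.049 to 0.0083 for Dld. In Rop7-I against Rop7-II they were -0.070 to 0.00075 for Pdhb and -0.034 to 0.0043 for Dlat. In Rop7-II against both others they were -0.017 to 0.054 for Pdhb and -0.017 to 0.022 for Dlat. The summed level of Pdk2, Pdk3 and Pdk4 in Rop7-III minus Rop7-I was 0.84 TPM and -0.17 to 1.585 TPM over these fits, negative without Rop7-I replicate 1.

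Over all genes, 1488 passed in Rop7-III against Rop7-II, 588 in Rop7-III against Rop7-I, 912 in Rop7-I against Rop7-II and 1479 in Rop7-II against both others. With no filter these were 811, 212, 399 and 721, with only the clones compared 939, 926 and 433, and with no trend 912 became 600. With array weights 588 became 1062. When each sample was left out they were 834 to 1315, 258 to 830, 416 to 875 and 956 to 1168.

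No pairing of the samples by replicate number was seen, though 3 samples per clone cannot show that there was none. Of 9 correlations between same-numbered samples of different clones, from -0.39 to 0.11, only 1 was over 0.1, and a sample matched best with its own number in 6 of 18 cases. With the replicate block 1105, 373, 613 and 1057 genes passed, 12 of the counts over pathway lists moved by more than 1.5 times, and the call of Pdp2 was lost. Leaving out Rop7-II replicate 1 in the pathway lists was chosen after seeing the data and moved 10 of their counts.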

Other observations

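Fatty acid oxidation is the other main source of mitochondrial acetyl-CoA. In Rop7-III against Rop7-II, 3 of 15 genes tested were higher and 1 lower, or 26.7% against 12.3% of all genes. In Rop7-III against Rop7-I 2 of 15 were higher (13.3% against 4.85%), and in Rop7-I against Rop7-II 1 was (6.67% against 7.53%). Acadl, the long-chain acyl-CoA dehydrogenase, stood at 41.36, 47.16 and 45.05 TPM in Rop7-III, whereas Rop7-II samples held 28.69, 33.58 and 28.13 TPM and Rop7-I samples held 30.14, 34.39 and 29.64 TPM, so that every Rop7-III sample lay above all others. It rose by 0.55 on the log2 scale against Rop7-II and by 0.49 against Rop7-I (limma with Benjamini-Hochberg adjusted p of 0.00160 and 0.00579), and passed in 9 and 4 of the 9 fits that leave out 1 sample. Acads, the short-chain enzyme, rose by 0.30 and 0.38 (limma with Benjamini-Hochberg adjusted p of 0.00450 and 0.00295), and passed in 6 and 4 of these fits. Acaa2, the mitochondrial thiolase of the last step, was instead low in Rop7-II, at 113.3, 102.43 and 104.08 TPM against 128.19 to 143.98 TPM in the other clones, and passed in all 9 of these fits in each comparison with Rop7-II. Acadvl, the very-long-chain enzyme, fell by 0.34 in Rop7-III against Rop7-II (limma with Benjamini-Hochberg adjusted p = 0.00876), a call lost in each of these 9 fits (adjusted p 0.0112 to 0.0241). In Rop7-II against the mean of both other clones, 1 of 15 passed, Acaa2, or 6.67% against 12.2% of all genes. Unadjusted p was under 0.05 there in 6 of 15, and in 4 of 15 in Rop7-III against Rop7-I. In Rop7-II against both others it was so in 14 of 29 genes of the hypoxia response and 8 of 17 regulators as well. The share of all genes at that looser cut was not counted, so these numbers show neither an excess nor a lack.

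Markers of 2 further cell types were read for all samples. Mean log2(TPM + 1) of the NK-cell markers was 0.983 to 1.33 in Rop7-I, 0.427 to 0.894 in Rop7-II and 0.695 to 0.741 in Rop7-III, with no marker above 17.46 TPM. Mean log2(TPM + 1) of the erythroid markers was 3.29 to 5.23 in Rop7-I, 1.14 to 2.48 in Rop7-II and 1.97 to 3.65 in Rop7-III. It was highest in Rop7-I replicate 2, where 7 of 8 were highest. Pdk1 was at 37.68 TPM there, between the other Rop7-I samples.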
